A study of Homo sapiens with 6 samples.

Results

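The genes described here are 38 integrin chains and focal adhesion components, taken by name from a fixed list, out of 58735 genes measured in HEK293 cells. HEK293 is a human embryonic kidney line. RNA was sequenced from cells that stably expressed tensin 2 (TNS2) carrying glutamate (Y483E) or phenylalanine (Y483F) in place of the same tyrosine, with 3 libraries of each. Glutamate is used to resemble a phosphorylated tyrosine, and phenylalanine cannot be phosphorylated. Both lines carry a mutated tensin 2, and no line with wild-type tensin 2 or without added tensin 2 is among the samples used here. The labels do not say whether each line is 1 clone, so clonal differences and the change of residue cannot be told apart. They call the replicates biological without naming separate cultures, and p-values therefore reflect only the variation among these libraries.

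Integrins are receptors made of an alpha and a beta chain that span the cell membrane. Outside the cell they hold matrix proteins such as fibronectin, laminin and vitronectin. Inside, talin and kindlin bind the beta chain and switch the receptor on, and a plaque of adaptors then ties it to actin filaments and to tyrosine kinases. Tensins are themselves adaptors of such adhesions, and they bind beta chains, actin and phosphorylated tyrosines. Tensins were kept out of the list of 38. The comparison of the lines asks which of these transcripts differ between the forms of tensin 2.

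Expression is given as FPKM, which is scaled to gene length and to a total per library, so levels of different genes can be set side by side. That total followed the authors' scaling factor (size factor) of each library and not its summed reads. Total reads ran from 17204498 to 23284592 per library. The libraries are numbered 1, 4 and 5 in each line, and these are replicates 1, 2 and 3. Over all tested genes, principal component 1, which held 40.9% of the variance, set Y483F replicates 2 and 3 apart from the other libraries, and Y483F replicate 1 lay with the Y483E libraries. Component 2, with 21.6%, placed Y483F replicate 1 (11.5) beside Y483E replicate 1 (9.36) and away from Y483E replicates 2 (-8.74) and 3 (-9.03). In a chi-square comparison of reads over genes, Y483F replicate 1 differed from Y483E replicate 1 by 3.13 per degree of freedom, against 11.1 and 8.79 from Y483F replicates 2 and 3. The share of reads on mitochondrial genes was 2.11%, 2.15% and 1.23% for Y483E, by replicate, against 2.05%, 3.27% and 3.11% for Y483F. Results are also given for the libraries numbered 4 and 5 alone, a choice made with this pattern known. TNS2 itself was at 0.753, 1.04 and 1.05 FPKM in Y483E against 1.07, 1.16 and 1.16 FPKM in Y483F, and the files do not separate the added from the native transcript. The HEK293 markers IRS4 (153 FPKM in Y483E and 165 FPKM in Y483F on average) and NEFL were measured above 1 FPKM in mean, while PAX2, LHX1, EYA1 and NEFM were below it. Of 10 markers of leukocytes, endothelium, liver, fibroblasts and basal epithelium, 0 reached a mean of 1 FPKM and PTPRC and CD3E were listed at 0. Their summed level was 0.713 to 0.846 FPKM in Y483E and 0.709 to 0.895 FPKM in Y483F.

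Of the 38 genes, 31 had a mean of at least 1 FPKM over all 6 libraries and were tested for a difference between the lines. The other 7 were ITGA1, ITGA9, ITGB3, ITGB4, ITGB8, TLN2 and ILK. The most abundant were the actin crosslinkers ACTN4 and FLNA, followed by ITGB1, CRKL, ZYX and CRK. At the lower end of the tested genes were TGFB1I1 (Hic-5), at 1.06 FPKM on average, ITGA3 and LPP. TGFB1I1 lay just inside the minimum, and its single libraries ran from 0.787 to 1.24 FPKM.

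**Figure D1:**
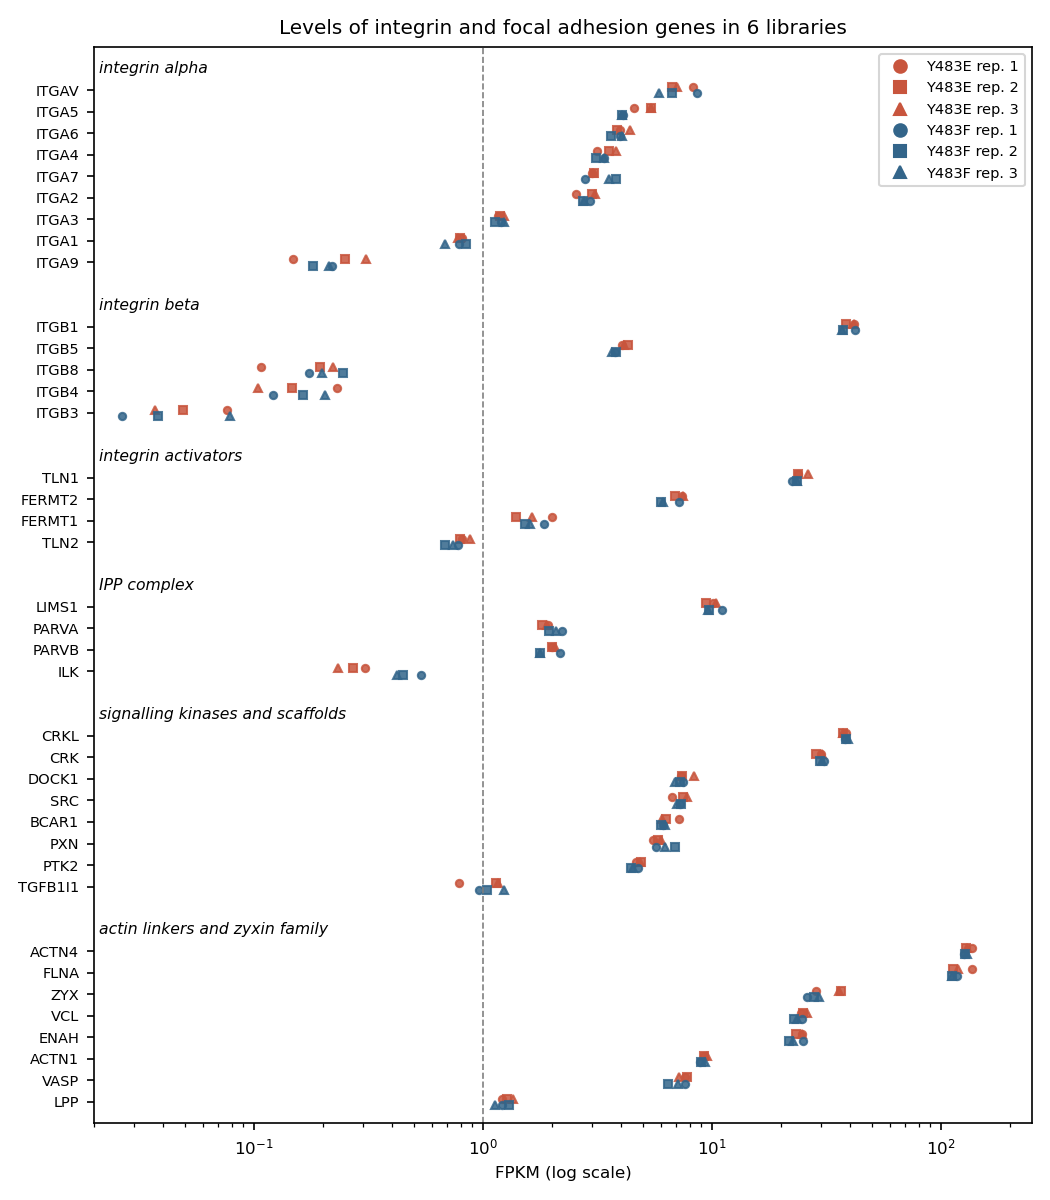
FPKM of each of the 38 genes in each of the 6 libraries on a log axis, grouped by role, with 1 colour per line and 1 symbol per replicate. Points of 1 gene lie close together next to the spread between genes, from ITGB3 at 0.0508 FPKM to ACTN4 at 130 FPKM on average.

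To show the promoters from which these genes are read, the 250 bases before each annotated start were taken from RefSeq on GRCh38.p14. An entry was found for 29 of the 38 genes, with 55 windows in all, since a gene can have several starts whose windows may overlap. Both strands were searched for 4 motifs: GGGCGG (bound by SP1), TGANTCA (AP-1), GGAATG (TEAD, the partner of YAP and TAZ) and the CArG box of serum response factor. In 0 of the 55 windows did matches of different motifs overlap. TEAD and serum response factor are known regulators of cytoskeletal and adhesion genes, so their matches are shown. Each line gives 30 bases, 5′ to 3′ on the gene's strand, with the match in capitals.
ITGA5, TEAD, chr12:54419331-54419360, minus strand: tccagggacccaGGAATGcccccccgccag
ITGB1, TEAD, chr10:32958395-32958424, minus strand: cgcggcgggagaGGAATGcgtttccggagg
VCL, TEAD, chr10:73997933-73997962, plus strand: gcccctcccttaGGAATGggggaggggcgg
PXN, TEAD, chr12:120250213-120250242, minus strand: tgtttccaggaaCATTCCtcttccttaggt
ACTN1, CArG, chr14:68977718-68977747, minus strand: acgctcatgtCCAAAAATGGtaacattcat
FLNA, CArG, chrX:154374709-154374738, minus strand: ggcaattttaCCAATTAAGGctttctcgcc
LPP, CArG, chr3:188212519-188212548, plus strand: gcctgcttctCCATATTTGGaaatgtttac
TGFB1I1, CArG, chr16:31473144-31473173, plus strand: tggaggggagCCAAATTTGGcttgggtgaa
The printed windows of ITGA5 and TGFB1I1 overlap an exon of the same gene in GENCODE 29. The other printed windows overlap no exon of their gene. Of these, the windows of ITGB1, VCL, PXN, ACTN1 and LPP lie within the span of their gene, and that of FLNA lies outside it. ACTN1 and LPP also had a TEAD match.

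The CArG box was found in 4 of the 55 windows (7.27%), against 1.16% of 35116 windows of all genes. GGAATG was in 12.7% of the windows of these genes and in 11.9% of all windows. GGGCGG was in 56.4% against 42.6%, and TGANTCA in 10.9% against 6.57%. The ZYX window held 5 copies of GGGCGG and no match to the other motifs, and the ITGA5 window held 1 copy of GGGCGG beside the printed match. These are matches of letters in a short window, given as a description.

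Between the lines, no gene of the group passed the threshold, a Benjamini-Hochberg adjusted p of 0.05 in limma on log2(FPKM + 1). The background was the same, since limma called 0 of 12833 genes (0%). At an unadjusted limma p under 0.05 there were 2 of the 31 tested genes, ITGA5 and ZYX, both higher in Y483E, against 12.2% of all tested genes. By size, 25 of the 31 differed by less than 0.1 on this log2 scale, 4 by 0.1 to 0.2, and 2 by 0.2 or more. The log2(FPKM + 1) scale understates the change of genes with low levels. The differences leaned one way: 24 were higher in Y483E and 7 lower, where 52.8% of all tested genes were higher. Their median was 0.053, and that of all tested genes was 0.0070. By library, the median deviation of these genes from their mean was lowest in Y483F replicates 2 and 3 (-0.042 and -0.030), the libraries with the most mitochondrial reads. It was highest in Y483E replicate 3 (0.053), which had the fewest. The part of the mitochondrial share in the result was not tested. In 4 of the 31 genes the lines did not overlap, against 17.1% of all tested genes. These were ITGA5, ITGB5 and TLN1, which were higher in Y483E, and PARVA, which was lower. Over all tested genes, 9.72% did not overlap and were higher and 7.37% did not overlap and were lower.

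**Figure D2:**
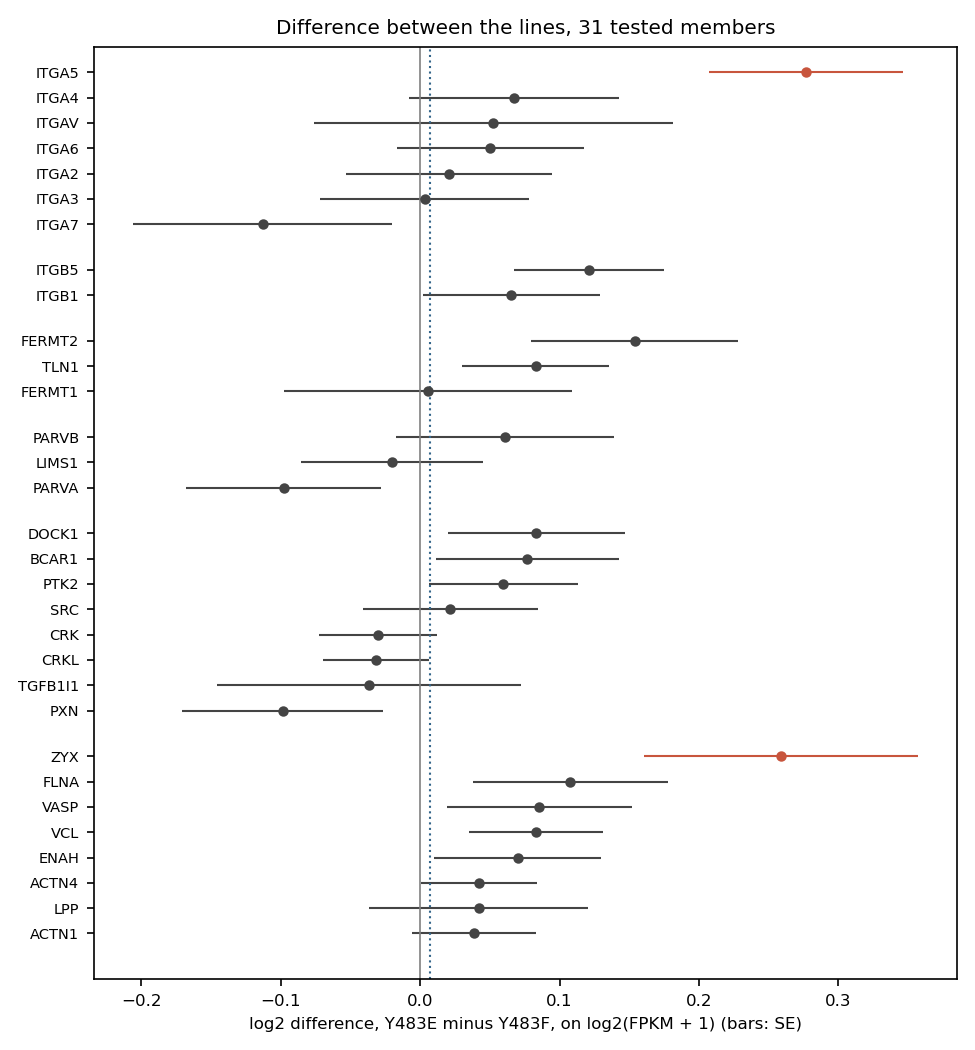
Difference Y483E minus Y483F in log2(FPKM + 1) for the 31 tested genes by role, with the limma standard error as bars, red for an unadjusted limma p under 0.05 and a dotted line at the median of all tested genes. ITGA5 (0.28) and ZYX (0.26) lie farthest to the right, and no gene passed the adjusted threshold.

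Among the alpha chains, 7 of 9 were tested, and 6 of these were higher and 1 lower in Y483E. The means of the lines differed by less than the larger of their SDs for all 9 alpha chains except ITGA5. ITGA5, which pairs with ITGB1 as the main fibronectin receptor, lies at chr12:54395261-54419460 on the minus strand. It was at 4.58, 5.43 and 5.40 FPKM in Y483E against 4.08, 4.03 and 4.05 FPKM in Y483F. All Y483E libraries were above all Y483F libraries, with replicate 1 the lowest of Y483E. The means were 5.14 ± 0.480 and 4.06 ± 0.0256 FPKM (SD, n = 3 each), a ratio of 1.27. In limma the log2 difference was 0.28 ± 0.069 (SE), with an unadjusted p of 0.00508 and an adjusted p of 0.266. The authors' deposited table lists ITGA5 with a log2 fold change of 0.34 and an adjusted p of 0.0527. In edgeR, run on the whole reads recovered from the FPKM values, the log2 fold change was 0.34 ± 0.079 with an adjusted p of 0.164, and edgeR called 0 of the 37 members it tested (0.0438% of all genes). Leaving out 1 library at a time, edgeR called ITGA5 without Y483E replicate 1 (adjusted p = 0.0347, with 1.06% of all genes called) and without Y483F replicate 1 (adjusted p = 0.0332, with 6.1% called). Both of these libraries are numbered 1. With any other library left out edgeR did not call ITGA5, and its adjusted p rose to as much as 0.631. In limma it was not called with any library left out (adjusted p of 0.119 to 0.664). DESeq2, on the same reads, called ITGA5 and no other gene of the group, with an adjusted p of 0.0454 (1.29% of all genes were called).

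ITGAV, which pairs with ITGB1, ITGB5 and other beta chains in receptors for vitronectin, was the most abundant alpha chain. It was at 8.24, 6.70 and 7.01 FPKM in Y483E against 8.63, 6.69 and 5.90 FPKM in Y483F. The libraries numbered 1 were the highest in both lines and the lines overlapped. The limma difference was 0.053 ± 0.129, and its sign turned to -0.026 without Y483E replicate 1 and to -0.053 without Y483F replicate 3. ITGA7, a laminin receptor chain best known from muscle, was the 1 tested alpha chain that was lower in Y483E, and it is described here because of its values. It was at 3.01, 3.06 and 3.03 FPKM in Y483E against 2.80, 3.79 and 3.56 FPKM in Y483F, so the libraries overlapped through Y483F replicate 1. ITGA2, ITGA3, ITGA4 and ITGA6 lay between 1.13 and 4.37 FPKM in single libraries, and none differed in limma at an unadjusted p under 0.05. ITGA1 (0.785 FPKM) and ITGA9 (0.220 FPKM) were under the minimum.

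ITGB1, the common beta chain with which most alpha chains pair, was far above the other beta chains. It was at 41.6, 38.6 and 41.6 FPKM in Y483E against 42.3, 37.2 and 36.9 FPKM in Y483F. The lines overlapped because Y483F replicate 1 was the highest of all, and the limma difference was 0.065 ± 0.064 with an adjusted p of 0.709. It was 0.031 without Y483F replicate 3 and 0.13 without Y483F replicate 1. ITGB5, which pairs with ITGAV, was at 4.03, 4.30 and 4.15 FPKM in Y483E against 3.77, 3.82 and 3.64 FPKM in Y483F. Its lines did not overlap, and the limma difference was 0.12 ± 0.054 with an unadjusted p of 0.0589 and an adjusted p of 0.422. ITGB3, ITGB4 and ITGB8 averaged between 0.0508 and 0.190 FPKM, so ITGB1 and ITGB5 were the only tested beta chains.

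The make-up of the receptor chains followed from these levels. Over all 8 beta chains, ITGB1 held 89.5 ± 0.767% of the summed FPKM in Y483E and 89.8 ± 0.713% in Y483F (SD, n = 3 each), and ITGB5 held 9.18% and 8.68%. No alpha chain dominated in this way. Of the summed level of 18 alpha chains, ITGAV held 20.0 ± 2.45% in Y483E and 19.8 ± 3.12% in Y483F. ITGA5 held 14.0 ± 1.18% in Y483E and 11.4 ± 0.375% in Y483F, while ITGAE, an alpha chain outside the list of 38, held 13.0% and 14.3%. The summed alpha level was 36.7 ± 0.730 FPKM in Y483E and 35.6 ± 1.40 FPKM in Y483F, and the summed beta level was 45.4 ± 1.54 and 43.2 ± 3.03 FPKM. These sums differed between the lines by less than the larger SD.

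**Figure D3:**
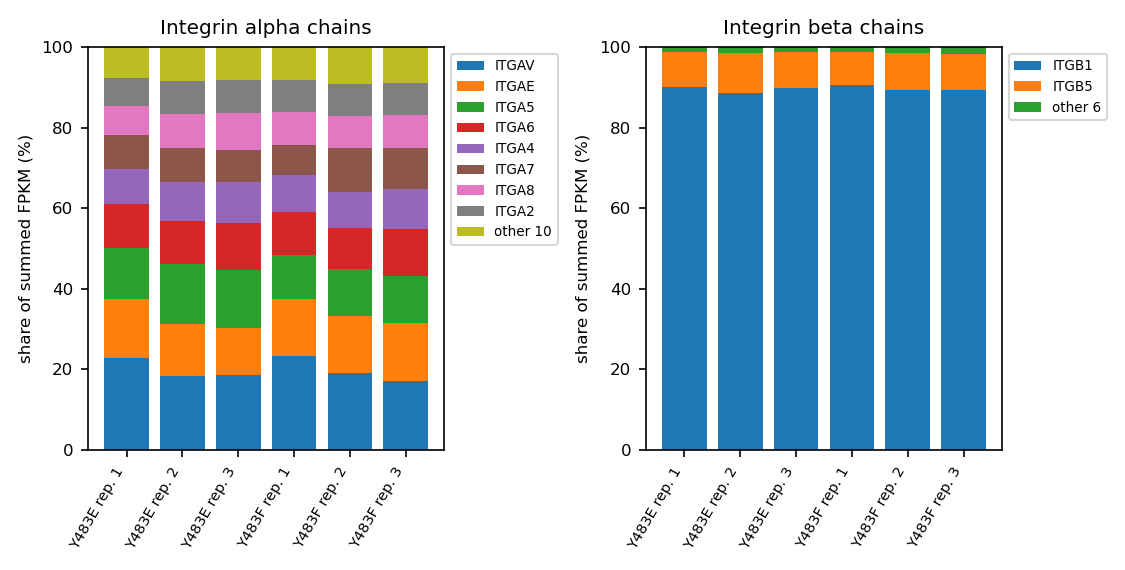
Share of the summed FPKM held by the most abundant of 18 alpha chains and 8 beta chains in each library, in percent, with the remaining chains added up. ITGB1 takes 88.6% to 90.6% of the beta chains in every library, and ITGA5 has a larger share in each Y483E library than in any Y483F library.

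The integrin activators are the talins and kindlins. In limma none of the 3 that were tested passed the threshold. TLN1 (talin 1), which links the beta chain to actin, was at 23.7, 23.7 and 26.2 FPKM in Y483E against 22.3, 23.5 and 23.5 FPKM in Y483F. The lines did not overlap, with Y483E replicates 1 and 2 next to the upper Y483F libraries and replicate 3 above them, and the limma difference was 0.083 ± 0.053 with an adjusted p of 0.557, or 0.036 without Y483E replicate 3. FERMT2 (kindlin 2), which works with talin on the beta chain, was at 7.39, 6.89 and 7.45 FPKM in Y483E against 7.20, 5.98 and 6.09 FPKM in Y483F. Its lines overlapped through Y483F replicate 1, and the limma difference was 0.15 ± 0.074 with an unadjusted p of 0.0756 and an adjusted p of 0.453. FERMT1, the epithelial kindlin, ran from 1.39 to 1.99 FPKM with no separation of the lines. TLN2, too low to be tested in limma, was at 0.807, 0.791 and 0.874 FPKM in Y483E against 0.774, 0.682 and 0.737 FPKM in Y483F. Its lines did not overlap, where 10.5% of genes with a mean of 0.05 to 1 FPKM did not overlap in either direction. In edgeR its log2 fold change was 0.16 ± 0.10 with an adjusted p of 0.529.

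Integrin-linked kinase, PINCH and parvin form a complex under the integrin tail. LIMS1 (PINCH-1), a part of this complex, was at 10.1, 9.45 and 10.4 FPKM in Y483E against 11.1, 9.72 and 9.64 FPKM in Y483F. These levels overlapped, with a limma difference of -0.020 ± 0.065. LIMS3 and LIMS4, which are close copies of LIMS1, were listed at 0, so how reads of shared sequence were assigned is not known. PARVA, which binds actin, was at 1.92, 1.80 and 1.91 FPKM in Y483E against 2.22, 1.94 and 2.08 FPKM in Y483F. It was the 1 tested gene whose Y483E libraries were all below the Y483F libraries, with a limma difference of -0.098 ± 0.070 and an adjusted p of 0.604. PARVB overlapped between the lines and averaged 1.97 FPKM.

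ILK was listed at only 0.305, 0.271 and 0.234 FPKM in Y483E against 0.536, 0.447 and 0.423 FPKM in Y483F. They rest on few reads, namely 19, 22 and 15 in Y483E against 32, 28 and 30 in Y483F. All Y483E libraries were below all Y483F libraries, where 10.5% of genes with a mean of 0.05 to 1 FPKM did not overlap in either direction. In edgeR the log2 fold change was -0.80 ± 0.27, with an unadjusted p of 0.0116 and an adjusted p of 0.242. Of the 3484 bases of ILK exons, at chr11:6603708-6610874 on the plus strand, 2736 (78.5%) are shared with exons of genes on the opposite strand, chiefly TAF10. TAF10 was at 3.69 ± 0.519 FPKM in Y483E and 3.28 ± 0.119 FPKM in Y483F. The protocol text names directional and non-directional libraries, and it is not known which were made. The listed level of ILK is therefore uncertain, and so is its difference. In no other member did exons of the opposite strand cover more than 14.2% of the length, the share in ACTN4. There the other gene, CAPN12, averaged 0.0507 FPKM. VCL shared 11.1% of its length with AP3M1, which averaged 21.6 FPKM. PXN shared 12.4%, chiefly with PXN-AS1, which averaged 1.81 FPKM. The part of these overlaps in the levels of VCL and PXN was not tested. ILK and TLN2 were singled out after their values were seen.

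Signalling kinases and scaffolds split evenly, since 4 of 8 were higher in Y483E, 4 were lower, and their median log2 difference was -0.0043. CRKL and CRK, adaptors that join phosphorylated BCAR1 (p130Cas) and paxillin to DOCK1 and so to Rac, were the most abundant. CRKL was at 38.7, 37.3 and 37.3 FPKM in Y483E against 38.2, 38.3 and 39.4 FPKM in Y483F. CRK was at 30.0, 28.4 and 30.2 FPKM in Y483E against 30.8, 29.6 and 30.2 FPKM in Y483F. Both pairs of groups overlapped, and the limma differences were -0.032 for CRKL (adjusted p = 0.769) and -0.030 for CRK (adjusted p = 0.801). PTK2, which encodes focal adhesion kinase, averaged 4.69 FPKM, and its partner SRC averaged 7.25 FPKM. BCAR1, DOCK1 and PXN (paxillin) averaged 6.32, 7.45 and 6.03 FPKM. In limma none of these 5 genes differed at an unadjusted p under 0.05, and the same holds for TGFB1I1.

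Of the actin linkers and zyxin relatives 8 of 8 were higher in Y483E, with a median log2 difference of 0.077. At an unadjusted limma p under 0.05 there was 1 of the 8. Over all tested genes, 52.8% were higher and 12.2% had an unadjusted limma p under 0.05. Between the libraries numbered 1, VCL and ENAH were lower in Y483E, and LPP had opposite signs at numbers 4 and 5. ACTN4 (alpha-actinin 4) was at 136, 128 and 130 FPKM in Y483E against 126, 128 and 130 FPKM in Y483F. FLNA (filamin A) was at 136, 113 and 119 FPKM in Y483E against 117, 112 and 112 FPKM in Y483F. Both overlapped between the lines, and in both the highest library was Y483E replicate 1. The limma differences were 0.042 ± 0.042 for ACTN4, which turned to -0.0092 under quantile normalization, and 0.11 ± 0.070 for FLNA, with adjusted p-values of 0.716 and 0.563. Without Y483E replicate 1 they were 0.016 for ACTN4 and 0.033 for FLNA, and FLNA was at 0.16 without Y483E replicate 2.

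ZYX (zyxin), a LIM protein that gathers on stretched actin bundles and recruits VASP and ENAH, lies at chr7:143381080-143391111 on the plus strand. It was at 28.5, 36.5 and 35.9 FPKM in Y483E against 26.0, 28.0 and 29.4 FPKM in Y483F. Y483E replicates 2 and 3 stood above all other libraries, while Y483E replicate 1 lay between Y483F replicates 2 and 3. The means were 33.6 ± 4.46 and 27.8 ± 1.73 FPKM (SD, n = 3 each), a ratio of 1.21. The limma difference was 0.26 ± 0.098, with an unadjusted p of 0.0328 and an adjusted p of 0.365. In the authors' deposited table ZYX has a log2 fold change of 0.27 and an adjusted p of 0.112, and in edgeR it had 0.27 ± 0.088 with an adjusted p of 0.238. ITGA5 and ZYX were the 2 members that this deposited table lists, beside 11.1% of all genes tested here. VCL (vinculin), which strengthens the bond of talin to actin, was at 24.4, 25.1 and 26.1 FPKM in Y483E against 24.8, 22.8 and 23.5 FPKM in Y483F and overlapped. ACTN1, LPP, VASP and ENAH averaged 9.18, 1.25, 7.29 and 23.7 FPKM, and in limma none differed at an unadjusted p under 0.05.

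**Figure D4:**
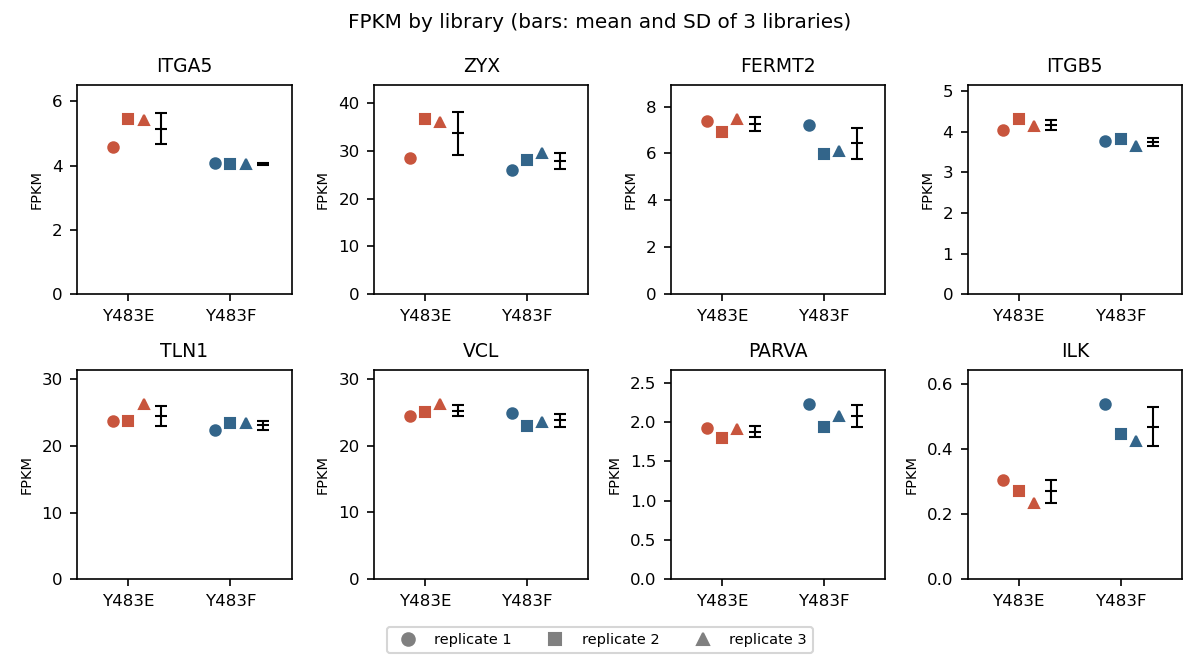
FPKM of ITGA5, ZYX, FERMT2, ITGB5, TLN1, VCL, PARVA and ILK in every library, with the mean and SD of each line as bars. The Y483E libraries of ITGA5 all lie above those of Y483F, while 1 of the 3 Y483E libraries of ZYX lies within the range of Y483F.

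The differences were not alike at the 3 library numbers. Between the libraries numbered 1, 13 of 31 genes were higher in Y483E and the median was -0.0058. At number 4 it was 23 of 31 with a median of 0.036, and at number 5 it was 25 of 31 with a median of 0.099. Over all tested genes the medians were -0.0043, 0.011 and 0.020, and 48.5%, 52.9% and 55.1% were higher in Y483E at numbers 1, 4 and 5. ITGA5 differed by 0.14 at number 1, 0.35 at number 4 and 0.34 at number 5, and ZYX by 0.13, 0.37 and 0.28. The numbers were not taken as pairs of libraries, and they serve here only to set the lines side by side. The same sign was seen at all 3 numbers in 11 genes. ITGA5, ITGB5, TLN1, FERMT2, ACTN1, ACTN4, FLNA, ZYX and VASP were higher in Y483E, and PARVA and PXN were lower. Another 12 genes were higher in Y483E at numbers 4 and 5 and lower at number 1, among them ITGAV, ITGB1, PTK2, SRC and VCL. The matching shares of all tested genes were not counted, so the counts of 11 and 12 are descriptions only.

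With the libraries numbered 4 and 5 alone, 2 against 2, more genes were called. This subset leaves out the libraries between which the lines differed least and was chosen with that known, so its calls are a description and no independent support. In limma ITGA5 (0.35, adjusted p = 0.0384) and ZYX (0.32, adjusted p = 0.0320) passed the threshold, 2 of 31 genes against 5.71% of all tested genes. In edgeR 5 genes passed, where 15% of all genes did. ITGA5 had a log2 fold change of 0.42 ± 0.068 with an adjusted p of 0.000877 in edgeR, and ZYX had 0.33 ± 0.042 with an adjusted p of 0.000152. FERMT2 (0.24, adjusted p = 0.0136 in edgeR) and VCL (0.14, adjusted p = 0.0235) were higher in Y483E too, and ITGA7 (-0.27, adjusted p = 0.0490) was lower. A term for number 1 against 4 and 5 gave edgeR calls for ITGA5 (adjusted p = 0.0445) and ZYX (adjusted p = 0.0346), with 1.02% of all genes called. In edgeR with no filter on low counts the same genes were called (2.15% of all genes). With array weights, which give libraries that fit the model poorly less weight, limma called ITGA5, ZYX and FERMT2 (14.7% of all genes). Whether the line difference itself depends on the number was tested as an interaction. That fit takes the spread at number 1, with a single library per line, to be that of the other numbers. No member passed, with lowest adjusted p-values of 0.278 in limma (ZYX), which called 0.0623% of all genes, and 0.223 in edgeR (ZYX), which called 2.01%. What the numbers stand for is not given, and their part in the result was not tested otherwise.

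**Figure D5:**
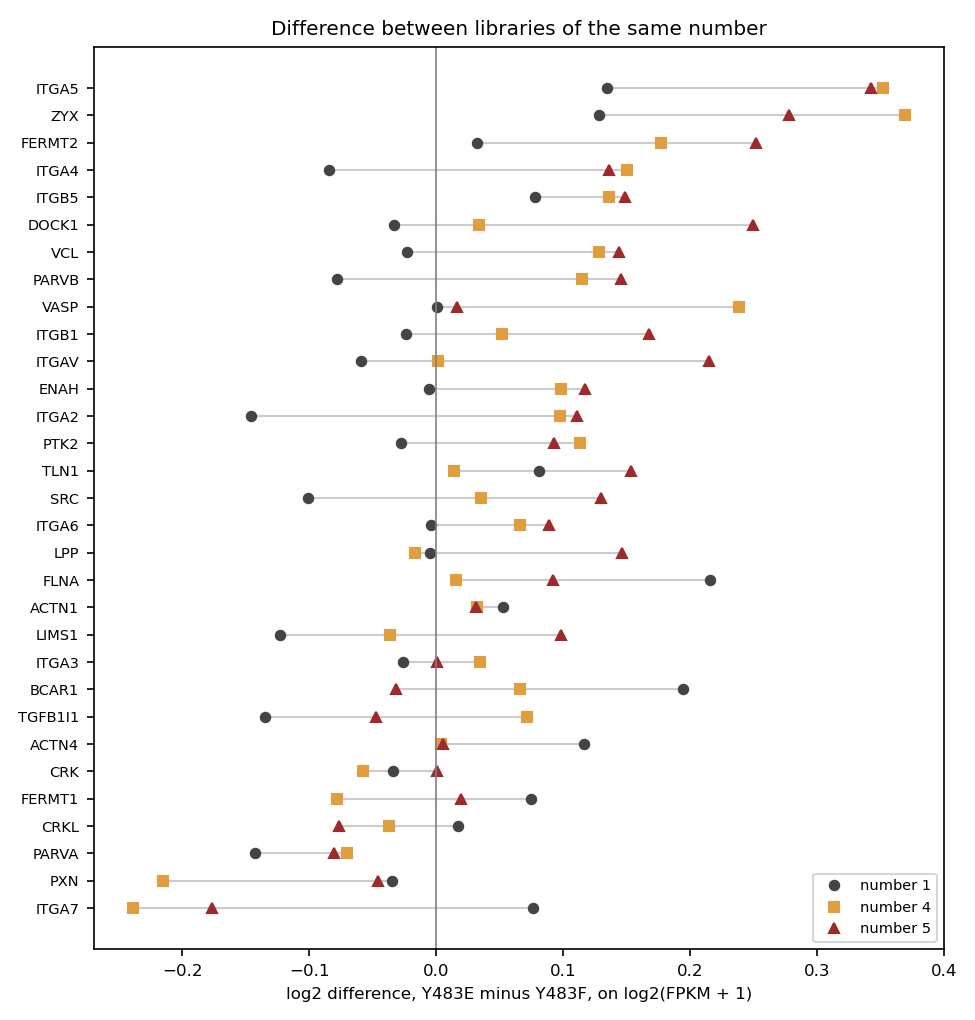
Difference Y483E minus Y483F in log2(FPKM + 1) for the 31 tested genes at library numbers 1, 4 and 5, 1 symbol per number, sorted by the mean at numbers 4 and 5. At number 1 the genes lie on both sides of 0 (13 of 31 above it), and at number 5 they lie mostly above it (25 of 31). Of all tested genes, 48.5% were above 0 at number 1 and 55.1% at number 5.

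Within 5 pairs of related genes, the share of the first gene does not depend on scaling between libraries. TLN1 made up 96.7 ± 0.0399% of TLN1 and TLN2 together in Y483E and 96.9 ± 0.263% in Y483F. CRK made up 43.9% of CRK and CRKL in both lines, and ACTN1 made up 6.62% and 6.61% of the alpha-actinins ACTN1 and ACTN4. FERMT1 made up 18.7 ± 2.29% of the kindlins FERMT1 and FERMT2 in Y483E and 20.5 ± 0.299% in Y483F. PARVA was the 1 pair whose lines did not overlap, with 48.1 ± 0.890% of PARVA and PARVB in Y483E and 52.3 ± 1.61% in Y483F. The two-sided exact permutation p for PARVA was 0.1, the smallest that 3 against 3 can give, and 0.5 after adjustment over the 5 pairs. The other exact p-values were 0.4 for TLN1 and FERMT1 and 1 for CRK and ACTN1.

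Other genes of the same machinery were taken from lists written with earlier results of these data known. Of 12 further integrin chains, 2 reached a mean of 1 FPKM, ITGAE (4.78 ± 0.517 FPKM in Y483E, 5.07 ± 0.173 in Y483F) and ITGA8 (3.00 ± 0.404 and 2.88 ± 0.163), and neither passed in limma (adjusted p of 0.715 and 0.890). Among 51 further adhesion adaptors and regulators 38 were tested, with 23 higher and 15 lower in Y483E, a median of 0.033. limma called 0 of them, with 5 at an unadjusted p under 0.05, a share near the 12.2% of all tested genes. The 2 most abundant were PFN1 (profilin 1, 286 ± 5.43 FPKM in Y483E and 266 ± 5.54 in Y483F) and PTPN11 (the phosphatase SHP2, 56.3 ± 1.37 and 53.1 ± 3.52). Their limma differences were 0.10 (adjusted p = 0.402) and 0.084 (adjusted p = 0.567). Of the 24 integrin ligands 15 were tested, 11 higher and 4 lower in Y483E, with a median of 0.11. In limma 0 passed, while 5 of the 15 had an unadjusted p under 0.05, a larger share than the 12.2% of all tested genes. The largest limma difference was that of TNC (0.55, adjusted p = 0.364), which is named because of its values. LAMC1 and NID1, basement membrane components that bind each other, were the most abundant, with limma differences of 0.13 (adjusted p = 0.360) and 0.18 (adjusted p = 0.400). Of the 4 syndecans, matrix receptors that work beside integrins, 3 were higher and 1 lower, and SDC1 and SDC2 differed by 0.030 and 0.10.

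The LIM proteins of this list, relatives and partners of zyxin among them, were looked at after their values were seen, and they did not move one way. LIMD1, of the zyxin family (-0.14, adjusted p = 0.472 in limma), CSRP1 (-0.11), PDLIM5 (-0.024) and PDLIM7 (-0.022) were lower in Y483E. TRIP6 (0.036), FHL2 (0.089), PDLIM1, AJUBA and TES were higher, and limma called 0 of them. PDLIM1, which binds alpha-actinin, was at 46.0, 52.2 and 52.7 FPKM in Y483E against 40.2, 41.7 and 40.9 FPKM in Y483F. AJUBA, a zyxin relative, was at 2.81, 2.95 and 2.59 FPKM in Y483E against 2.27, 1.85 and 2.06 FPKM in Y483F. Neither overlapped between the lines, and the limma differences were 0.29 (adjusted p = 0.257) for PDLIM1 and 0.31 (adjusted p = 0.272) for AJUBA. Among the 38 tested genes of their list, 4 did not overlap and were higher in Y483E, and 1 did not overlap and was lower. Over all tested genes, 17.1% did not overlap in either direction. TES, which binds zyxin, averaged 31.9 ± 2.98 FPKM in Y483E and 26.9 ± 3.15 FPKM in Y483F. It overlapped through Y483F replicate 1, as VCL and FERMT2 did, and its limma difference was 0.24 (adjusted p = 0.384). The authors' deposited table lists PDLIM1 with a log2 fold change of 0.30 and an adjusted p of 0.0112. It also lists AJUBA with 0.44 (adjusted p = 0.0871), TES with 0.25 (adjusted p = 0.176) and LIMD1 with -0.17 (adjusted p = 0.439).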

How the data were processed

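The 38 members and the other gene lists were chosen with earlier results of these data known. Libraries were made from total RNA selected with poly-T beads, per the labels' protocols. featureCounts 1.5.0-p3, HISAT2 2.0.5, DESeq, DESeq2 and StringTie 1.3.3b are named in the submitters' processing notes, without their roles, and no build is named there. The authors deposited FPKM values for all genes. A second deposited table lists 1652 genes with raw read counts, the same FPKM values, a signal (counts divided by 1 size factor per library), the authors' log2 fold changes (Y483E relative to Y483F), and p-values. All 38 members have the coordinates of GENCODE 29 on GRCh38.

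Read numbers were recovered as FPKM times gene length times the total behind the FPKM of each library. That total was the median value implied by the deposited counts of listed genes. Divided by the library's size factor it was 19044348 in every library, so it followed the size factors and not the summed reads. Of the positive values 100% came out whole, to a tolerance of 0.01. The reads equalled the authors' deposited counts for all 1652 listed genes, but these counts had also set the total. Reads summed to 17204498 to 23284592 per library. Depth limits genes with few reads, such as ILK, and counting error is only part of their spread.

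The test was limma 3.58.1 (lmFit, eBayes with trend, two-sided) on log2(FPKM + 1) in R 4.3.3, for the 12833 genes averaging 1 FPKM or more over all 6 libraries, with Benjamini-Hochberg adjustment over all of them and a threshold of 0.05. Differences are Y483E minus Y483F. Paralogue shares were tested by exact permutation, two-sided. The recovered reads were tested with DESeq2 1.42.0 and with the quasi-likelihood test of edgeR 4.0.16 after TMM scaling and filterByExpr, and DESeq2 here is not separate from the authors' table. Other settings were a pseudocount of 0.1, a minimum mean of 5 FPKM or none, quantile normalization, the size factors of DESeq2 in edgeR, the replicate number as a block, a term for number 1 against 4 and 5, numbers 4 and 5 alone, and leaving out each library. The number term and numbers 4 and 5 alone were chosen with earlier results of these data known, and array weights and leaving out libraries in edgeR were added after seeing the data.

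Values in all libraries are given by rule for members with an unadjusted limma p under 0.05, members called by edgeR or listed in the authors' table, and the 2 most abundant members of each role. For other lists the 2 most abundant genes are named. Any other gene was singled out after its values were seen.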

Additional observations from a re-analysis of the deposited data

How the results depend on the processing

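In all 27 other settings the median log2 difference over the tested members stayed above 0, from 0.029 to 0.087, and 12 of the 15 members described most closely kept their sign. limma called 0 members under the other pseudocount, filters, quantile normalization, the number term and each library left out, with medians of 0.029 to 0.064 in the last. With a filter at 5 FPKM, 14 of 18 tested members were higher, where 56.4% of the 7473 genes tested in that setting were. Numbers 4 and 5 alone gave medians of 0.083 in limma and 0.087 in edgeR. The count of all genes called moved widely. It was 7 in edgeR and 7 with the size factors of DESeq2, 671 in edgeR without a filter, 142 in DESeq2, 733 in limma and 2454 in edgeR with numbers 4 and 5 alone, 169 in edgeR with the number term and 1888 with array weights. Members called were 2 in edgeR without a filter, 1 in DESeq2, 2 in limma and 5 in edgeR with numbers 4 and 5 alone, 2 with the number term and 3 (ITGA5, FERMT2 and ZYX) with array weights. In edgeR with 1 library left out, 1 to 1000 genes and 0 to 2 members were called. The highest counts came without Y483F replicate 1 (1000 genes, ITGA5 and FERMT2) and without Y483E replicate 1 (174 genes, ITGA5 and ZYX). For the interaction of line and number, edgeR called 347 genes, against 8 in limma, and 0 members in both. The cause of these moves was not tested.

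Replicate numbers are shared by the lines. The deviations of same-numbered libraries correlated at 0.056, 0.139 and -0.095, so the numbers were not taken as pairs. With the replicate number as a block, limma called 0 genes and edgeR 6, with 0 members in both.

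Signs turned where differences were near 0. With 1 library left out, ITGAV ran from -0.053 (Y483F replicate 3) to 0.187 (Y483F replicate 1) in limma and from -0.072 to 0.212 in edgeR, and it was -0.026 in limma and -0.046 in edgeR when Y483E replicate 1 was omitted. LIMS1 was 0.031 in limma and 0.029 in edgeR with numbers 4 and 5 alone and 0.022 with array weights. With 1 library left out it ran from -0.052 to 0.038 in limma and from -0.065 to 0.038 in edgeR, with 0.014 and 0.0047 when Y483E replicate 2 was omitted. ACTN4 was -0.0092 under quantile normalization. With 1 library left out, the difference in the CRK share ran from -0.406 to 0.405 percentage points and that in the ACTN1 share from -0.0963 to 0.143. Depth limits members under 1 FPKM, above all ILK, with 15 to 32 reads per library.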
